A study of Homo sapiens with 4 samples.

Results

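The locus described here is a stretch of chromosome 10 that carries COMMD3, BMI1 and SPAG6, 3 neighbouring genes read on the forward strand. It was taken as 1 span that begins 50 kb before COMMD3 and ends 50 kb beyond SPAG6, at chr10:22266388-22467610 of GRCh38 (201223 bp), and every H3K27ac peak in it was listed and set against the surrounding 10 Mb (chr10:17367000-27366999). The members are thus 3 of 19675 protein-coding genes, and the span held 12 of the 86207 peaks of the combination list and 12 of the 55852 peaks of the OTX015 list. The peaks came from ChIP-Seq of MOLM13, a human acute myeloid leukemia (AML) line that carries the MLL-AF9 fusion. Cells received 500 nM SNDX-50469, a Menin inhibitor that keeps Menin from docking on MLL, together with 500 nM OTX015, a compound that occupies the bromodomains of BET proteins (the combination), or 500 nM OTX015 with no further agent. Treatment lasted 16 hours in both groups, and both carried OTX015, so the question is how H3K27ac at the locus differed once SNDX-50469 was given on top of OTX015; untreated cells and SNDX-50469 alone were not analysed here. Each treatment had 1 ChIP library from 1 cell line, so no difference below has a replicate check, no test was made, and higher and lower describe these libraries.

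BMI1 (PCGF4) is a subunit of Polycomb repressive complex 1 (PRC1), in which it stimulates the RING1 and RNF2 enzymes that place ubiquitin on histone H2A, and it is known for repressing CDKN2A and for the self-renewal of normal and leukemic blood stem cells. COMMD3 belongs to the COMM domain proteins of the Commander complex, which returns membrane proteins from endosomes to the cell surface, and a readthrough transcript, COMMD3-BMI1, joins it to its neighbour. SPAG6 is a protein of the central apparatus of motile cilia and sperm tails. Acetylation of histone H3 at lysine 27 (H3K27ac) marks active promoters and enhancers, and BET proteins bind acetylated histones.

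The lists hold no read numbers, so depth was inferred from the lowest peaks. The background was 1.47 fragments per base in the combination library and 0.764 in the OTX015 library, a ratio of 1.92. It was read as a ratio of depth, which was not checked, since peak-calling options and the use of the inputs were not known. Against these backgrounds, the lowest combination peaks needed 4.76 times background, and the lowest OTX015 peaks 6.54 times. Peaks covered 44.4 Mb of the genome with the combination and 26.0 Mb with OTX015, but 6962 and 6930 kb on chromosomes other than 10 once chromosomes 5, 6, 8, 13, 19 and 20, which were densely covered in both lists, were set aside. Of 13 myeloid blast markers, 9 carried a peak at or within 1 kb of their start in each list, though not the same 9. SPI1, MPO, FLT3 and HOXA9 had it in both, CSF1R with the combination alone and CEBPA with OTX015 alone. MEIS1, CD33 and CD14 had none in either. Of 10 markers of other blood cells, 3 had such a peak with the combination (CD3D, CD79A and NKG7) and 2 with OTX015 (CD79A and NKG7), and of 4 epithelial markers none did. The share of all genes with a peak within 1 kb of the start is not given here. These counts therefore do not show whether markers were marked more often than other genes. The part of such markers in the results was not tested.

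COMMD3 spans chr10:22316388-22320306 (gene ID 23412, 3919 bp), BMI1 chr10:22321099-22331706 (gene ID 648, 10608 bp) and SPAG6 chr10:22345496-22417610 (gene ID 9576, 72115 bp). The readthrough record COMMD3-BMI1 runs over chr10:22316388-22331484, and the other records of the span, RPL31P45, LINC03027 and LOC105376449, met no peak. The 3 starts differed in how the peaks lay on them. The start of COMMD3 was inside a peak in both lists, of 1310 bp with the combination and 2438 bp with OTX015. The start of BMI1, 4711 bp further on, lay between peaks in both lists, in a gap of 1447 bp with the combination and 498 bp with OTX015. RefSeq gives BMI1 a further start at 22321956, and this one lay in the same gap of 1447 bp with the combination but inside a peak of 1742 bp with OTX015. The start of SPAG6 lay beyond the last peak in both lists, 1006 bp from it with the combination and 3371 bp with OTX015. The promoters of COMMD3 and BMI1 (RefSeq, GRCh38.p14, forward strand, 250 bases before to 50 after the start) are printed because these 3 windows differ in cover: the COMMD3 window was wholly covered in both lists, that of the first BMI1 start was uncovered in both, and that of the further BMI1 start was covered over 0% with the combination and 100% with OTX015. Capitals mark the E-box CACGTG, which reads alike on both strands.
COMMD3, chr10:22316138-22316437: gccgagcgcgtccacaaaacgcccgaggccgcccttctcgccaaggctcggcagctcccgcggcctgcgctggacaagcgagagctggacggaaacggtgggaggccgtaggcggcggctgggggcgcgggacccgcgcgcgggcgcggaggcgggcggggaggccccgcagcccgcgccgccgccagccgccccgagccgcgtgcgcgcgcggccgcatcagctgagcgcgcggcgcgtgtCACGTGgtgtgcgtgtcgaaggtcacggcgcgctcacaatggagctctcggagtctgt
BMI1, first start, chr10:22320849-22321148: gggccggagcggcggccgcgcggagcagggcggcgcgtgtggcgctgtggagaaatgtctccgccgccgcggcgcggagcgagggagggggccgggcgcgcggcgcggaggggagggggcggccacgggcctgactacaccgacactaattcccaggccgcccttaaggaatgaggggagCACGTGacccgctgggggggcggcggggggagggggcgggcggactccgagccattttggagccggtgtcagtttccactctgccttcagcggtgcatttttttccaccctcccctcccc
BMI1, further start, chr10:22321706-22322005: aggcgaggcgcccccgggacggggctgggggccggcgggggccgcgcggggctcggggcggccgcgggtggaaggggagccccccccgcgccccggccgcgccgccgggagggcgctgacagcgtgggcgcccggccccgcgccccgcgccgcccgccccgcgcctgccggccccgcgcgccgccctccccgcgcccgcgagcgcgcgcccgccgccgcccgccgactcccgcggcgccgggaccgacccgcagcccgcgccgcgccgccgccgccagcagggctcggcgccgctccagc

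All of these windows are rich in CpG. The window of the further BMI1 start had a GC content of 91% and 65 CpG, that of COMMD3 77% and 53 CpG, and that of the first BMI1 start 73.3% and 36 CpG, against medians of 58.7% and 14 CpG over 34796 RefSeq promoters of 300 bases. The SPAG6 window (chr10:22345246-22345545, 72.3% GC, 47 CpG) was uncovered in both lists, with the nearest peak 756 bp away with the combination and 3121 bp with OTX015. The E-box occurred 1 time each in the COMMD3 window and in that of the first BMI1 start, and 7.20% of all promoters hold it. The SPAG6 window held 1 cyclic AMP response element, TGACGTCA on either strand, which 1.84% of promoters hold. GC boxes (GGGCGG on either strand, overlaps between hits counted) numbered 3 in the COMMD3 window, 6 and 5 in those of the first and further BMI1 starts and 1 in the SPAG6 window, and 44.9% of promoters hold at least 1. These motifs were chosen after the sequences were seen, and a match of letters says nothing of a bound factor.

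Across the span, peaks covered 10.6 kb (5.27% of its length) with the combination and 19.4 kb (9.66%) with OTX015, a ratio of 0.546 and a difference of -8.83 kb. The deposited lists held 12 peaks each there (11 and 12 with equal peak numbers over the genome, 9 and 8 with peaks within 1 kb merged), and the widths differed. The median width was 633 bp with the combination (122 to 4048 bp) and 1320.5 bp with OTX015 (234 to 5997 bp), and 3 and 7 peaks were at least 1 kb wide. Counted from the 5′ end of BMI1, the peaks of both lists lay between -11673 and 23391 bp, and the first 43.038 kb and the last 123 kb of the span held none in either list. The occupied stretch was of like length in the lists, 30.7 kb with the combination and 32.7 kb with OTX015, but peaks filled 34.6% of it with the combination and 59.4% with OTX015. The map of peaks along the locus shows largely the same places marked, mostly by narrower peaks, in the combination list.

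**Figure D1:**
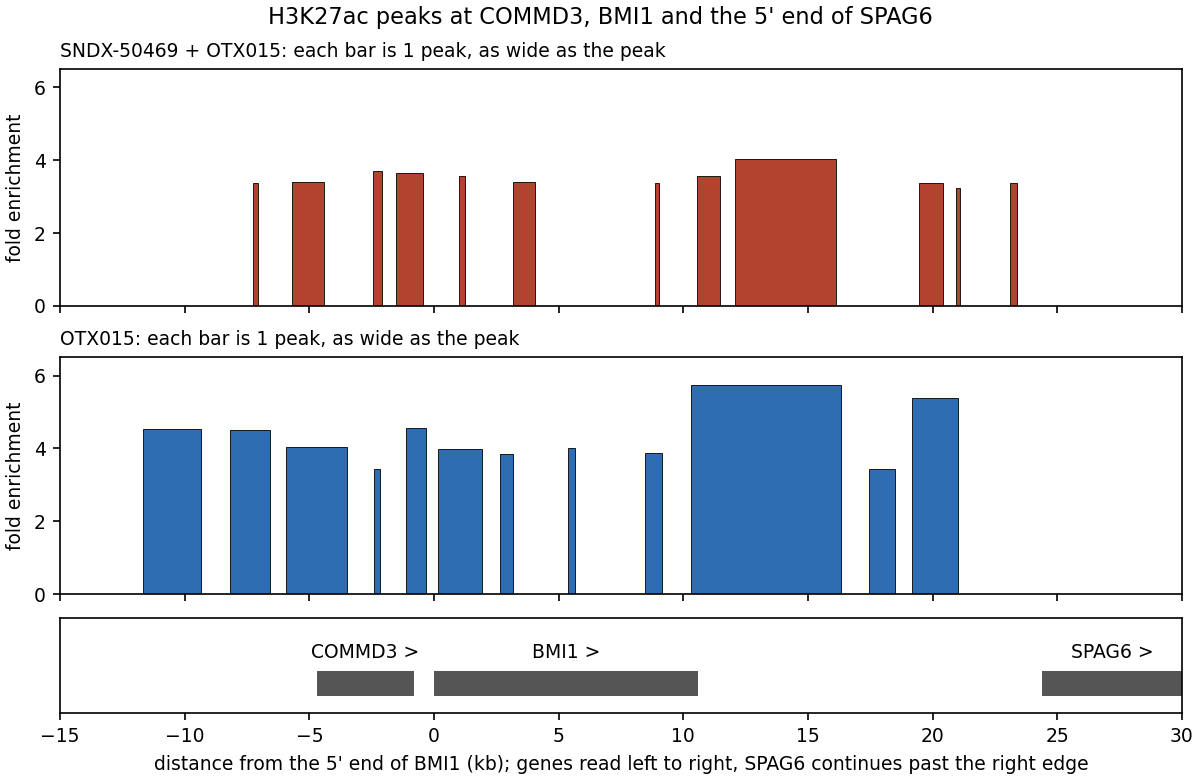
H3K27ac peaks at the locus, by distance from the 5′ end of BMI1 (kb, x axis) and deposited fold enrichment (y axis), in the combination library above and the OTX015 library below; each bar is 1 peak drawn to its width, and grey boxes are genes. The 12 combination peaks lie between 3.24 and 4.03 and the 12 OTX015 peaks between 3.42 and 5.74, and the widest peak of each list lies at or beyond the end of BMI1.

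Of peaks wholly before COMMD3, those of the OTX015 list were over 1 kb wide and that of the combination list was short. OTX015 had a peak of 2310 bp at chr10:22309426-22311735 (fold enrichment over background as deposited 4.53, −log10 q 2.69) that no combination peak met. Next came an OTX015 peak of 1599 bp at chr10:22312904-22314502 (fold 4.52, −log10 q 2.66), and inside it a combination peak of 222 bp at chr10:22313829-22314050 (fold 3.38, −log10 q 1.48), so that 13.9% of the OTX015 peak was covered in the combination list. In the 50 kb upstream of COMMD3, cover was 1.22 kb with the combination and 5.13 kb with OTX015, a ratio of 0.238, the lowest among the 5 stretches of the span that held peaks.

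The start and body of COMMD3 were marked in both lists. The peak over the start was chr10:22315390-22316699 with the combination (1310 bp, fold 3.42, −log10 q 1.53) and chr10:22315164-22317601 with OTX015 (2438 bp, fold 4.03, −log10 q 1.88), and the whole of the combination peak lay inside the OTX015 peak. Further into the gene the combination peaks were the wider. A small peak in the gene body had 380 bp at chr10:22318652-22319031 (fold 3.71, −log10 q 1.89) in the combination list and 234 bp at chr10:22318699-22318932 (fold 3.42, −log10 q 1.13), wholly inside it, in the OTX015 list. A peak across the end of COMMD3 reached towards BMI1 in both lists, at chr10:22319585-22320652 with the combination (1068 bp, fold 3.64, −log10 q 1.83) and at chr10:22319987-22320778 with OTX015 (792 bp, fold 4.56, −log10 q 2.61). The body of COMMD3 was covered over 36.1% with the combination and 45.1% with OTX015 (1.41 and 1.77 kb, ratio 0.800), and the 792 bp between COMMD3 and BMI1 over 0.346 and 0.472 kb (ratio 0.733).

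The body of BMI1 differed more. Its cover was 1.34 kb (12.6%) with the combination and 3.47 kb (32.7%) with OTX015, a ratio of 0.387. Just after the start, a combination peak of 246 bp at chr10:22322100-22322345 (fold 3.58, −log10 q 1.72) lay inside an OTX015 peak of 1742 bp at chr10:22321277-22323018 (fold 3.98, −log10 q 1.83). Within 1 kb of the first start of BMI1, 0.554 kb was covered with the combination and 1.503 kb with OTX015, so the cover nearest to the start was lower with the combination although neither list had a peak on the start itself. Further into the gene the peaks of the lists nearly parted: the combination had 886 bp at chr10:22324284-22325169 (fold 3.41, −log10 q 1.52) and OTX015 had 528 bp at chr10:22323760-22324287 (fold 3.84, −log10 q 1.62), which share 4 bp. OTX015 alone had a peak of 263 bp at chr10:22326492-22326754 (fold 4.02, −log10 q 1.83). Towards the end of the gene, a combination peak of 163 bp at chr10:22329980-22330142 (fold 3.37, −log10 q 1.47) lay inside an OTX015 peak of 648 bp at chr10:22329580-22330227 (fold 3.89, −log10 q 1.67). Exons of this build were not used here, so peaks are placed by gene body and start, and not as exonic or intronic.

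The intergenic stretch from the end of BMI1 to the start of SPAG6 (13789 bp) carried more cover than any other stretch of the span in both lists, 6.28 kb (45.5%) with the combination and 8.59 kb (62.3%) with OTX015, a ratio of 0.731. OTX015 had there the widest and strongest of its 65 peaks in the 10 Mb, 5997 bp at chr10:22331422-22337418 (fold 5.74, −log10 q 4.78), which began inside the last bases of BMI1. Inside that peak lay 2 combination peaks, 900 bp at chr10:22331661-22332560 (fold 3.57, −log10 q 1.73) and 4048 bp at chr10:22333165-22337212 (fold 4.03, −log10 q 2.43), which together covered 82.5% of it. The larger of these was the widest and strongest peak of the combination list in the span. It ranked 2 of 57 by width and 3 of 57 by −log10 p in the 10 Mb. Among 17329 and 15586 peaks outside the densely covered chromosomes, the widest peak of the locus ranked 132 by width and 718 by −log10 p with the combination, and 69 and 72 with OTX015.

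Closer to SPAG6 the lists parted again. An OTX015 peak of 1042 bp at chr10:22338552-22339593 (fold 3.45, −log10 q 1.15) met no combination peak. The next OTX015 peak, 1838 bp at chr10:22340288-22342125 (fold 5.39, −log10 q 4.20), was the second strongest of its list in the span and met 2 combination peaks, 968 bp at chr10:22340569-22341536 (fold 3.39, −log10 q 1.50) and 122 bp at chr10:22342057-22342178 (fold 3.24, −log10 q 1.32), which covered 56.4% of it. The last peak of the locus was in the combination list alone, 287 bp at chr10:22344204-22344490 (fold 3.37, −log10 q 1.47), and was its nearest to SPAG6. The body of SPAG6 and the 50 kb downstream of it held no peak in either list. The plot of cover by stretch shows lower cover with the combination in each of the 5 stretches that held peaks, with differences between -0.126 kb in the stretch from COMMD3 to BMI1 and -3.91 kb upstream of COMMD3.

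**Figure D2:**
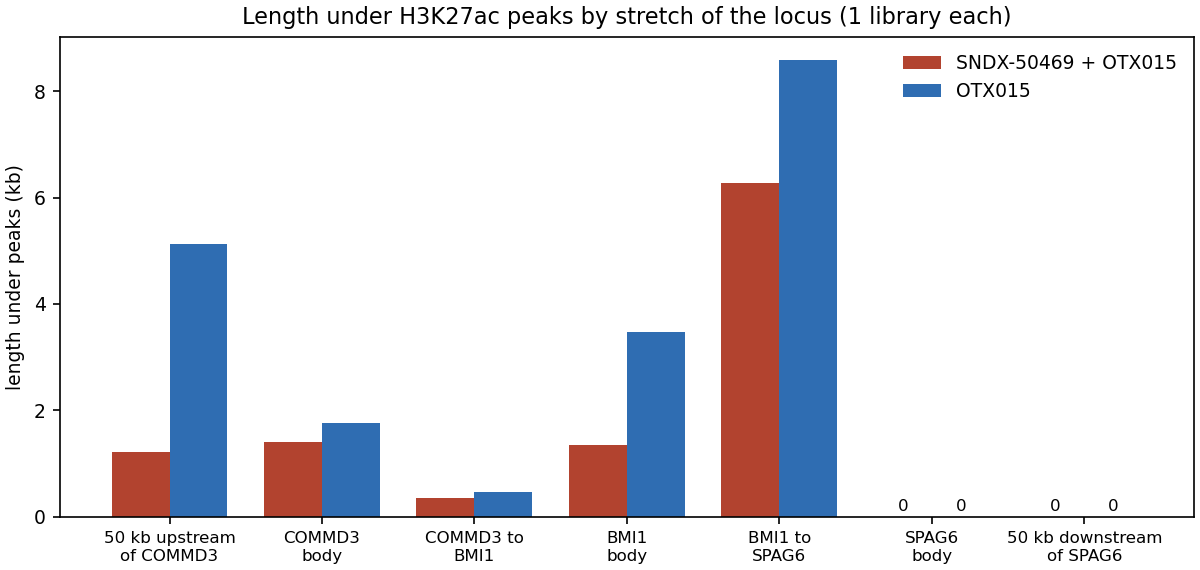
Length under H3K27ac peaks (kb, y axis) in the 7 stretches of the span, 1 library per treatment and so no error bars; red bars are the combination and blue bars OTX015. The gap between the bars is widest upstream of COMMD3 (1.22 and 5.13 kb), cover is highest between BMI1 and SPAG6 (6.28 and 8.59 kb), and SPAG6 itself and the stretch after it are at 0 in both.

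The places marked were largely shared and the extent was not. Of the combination peaks of the span, 11 of 12 met an OTX015 peak by at least 1 bp (91.7%, Wilson 95% interval 64.6 to 98.5%), and of the OTX015 peaks 9 of 12 met a combination peak (75%, 46.8 to 91.1%). In the rest of the 10 Mb these counts were 11 of 45 (24.4%, 14.2 to 38.7%) and 10 of 53 (18.9%, 10.6 to 31.4%). The intervals cover counting over peaks only and treat neighbouring peaks of 1 library as independent, which they need not be. The meeting of 1 combination peak with 1 OTX015 peak in the span rests on 4 bp. The part of peak width in these shares was not tested. In bases, 8.83 kb of the span lay under peaks of both lists, 1.77 kb under combination peaks alone and 10.6 kb under OTX015 peaks alone. The shared bases made up 83.3% of the combination cover and 45.4% of the OTX015 cover, so most of what the combination library marked at the locus was also marked with OTX015. In the rest of the 10 Mb these shares were 48.0% and 29.1%. Sharing in other densely covered stretches is not given here.

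The height of the peaks, as an average over each peak, read differently on the 3 available scales. Deposited fold had a median of 3.42 with the combination and 4.03 with OTX015, and a −log10 q of at least 2 was reached by 1 and 5 peaks. In fragments per base, inferred from fold and background, the highest average of a peak was 8.94 in the combination library and 9.12 in the OTX015 library. These are averages over peaks of unlike width and not summits. The medians were 7.44 and 6.11. The lowest peaks of the whole lists stood at 7 and 5, so these medians lie close to the limit of each list. Fragments per base are not corrected for depth, so the higher combination median is not a higher signal. The inferred backgrounds of the libraries differed by 1.92 times. Set against the background of its own library, the median peak came to 5.06 times background with the combination and 7.99 times with OTX015. The maxima were 6.08 and 11.9. All 12 combination peaks were below all 12 OTX015 peaks on this scale. None of the combination peaks reached 6.54 times background, the level that every OTX015 peak passes by construction. This was not particular to the locus: 0 of 45 combination peaks in the rest of the 10 Mb reached it, 22 of 1017 (2.16%) in the rest of chromosome 10, and 273 of 16300 (1.67%) on the other chromosomes outside the dense 6. At the locus, depth, enrichment and treatment thus cannot be told apart. The choice of peaks also set the size of the difference: among peaks with a −log10 q of at least 2, cover of the span was 4.05 kb with the combination and 12.5 kb with OTX015 (ratio 0.323), and that within 10 kb of the start of BMI1 was 0 and 3.03 kb.

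**Figure D3:**
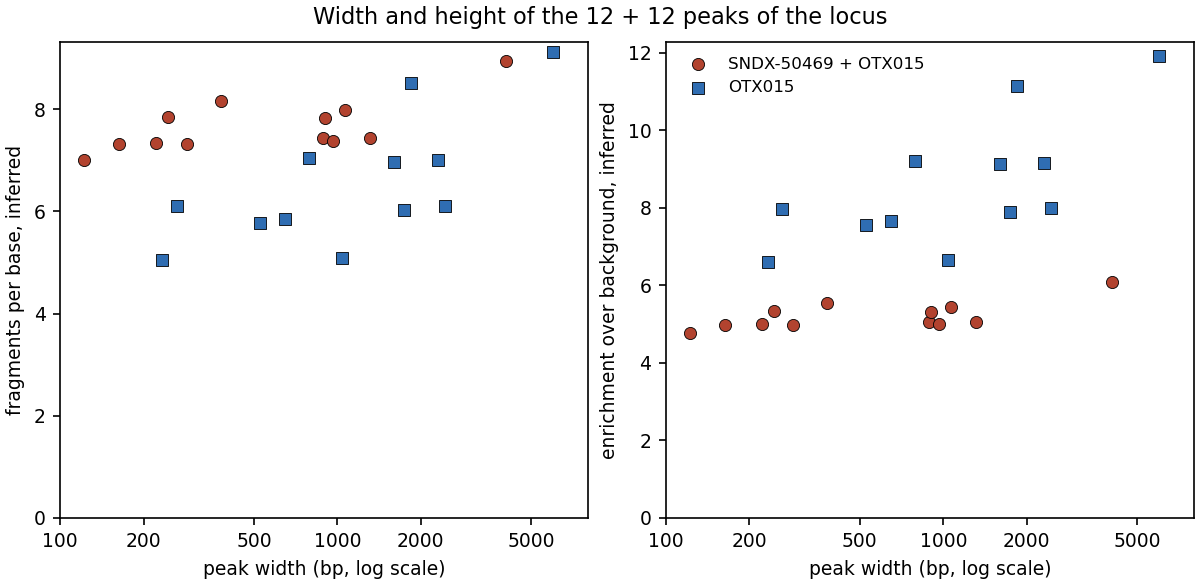
Width (bp, log axis) of each peak of the locus against the inferred fragments per base (left) and the inferred enrichment over background (right); red circles are the 12 combination peaks and blue squares the 12 OTX015 peaks. The lists overlap in fragments per base, averaged over each peak, with maxima of 8.94 and 9.12, but are apart in enrichment, with maxima of 6.08 and 11.9.

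Against its surroundings the locus was a dense spot in both lists. It is 2.01% of the length of the 10 Mb and held 32.4% of its cover with the combination and 34.7% with OTX015. Cover per base was 23.3 times that of the rest of the 10 Mb with the combination and 25.9 times with OTX015. The rest of the 10 Mb was also covered less with the combination, over 22.1 kb (45 peaks) against 36.5 kb (53 peaks) with OTX015, a ratio of 0.607 beside the 0.546 of the span. The rest of chromosome 10 had 447 kb with the combination and 501 kb with OTX015 (0.893), and the other chromosomes outside the dense 6 stood at 1.00. The difference in median width between the lists was seen in the 10 Mb but not over the rest of the chromosome. The median width in the rest of the 10 Mb was 246 bp with the combination and 328 bp with OTX015, and that of the rest of chromosome 10 was 248 and 246 bp. It was thus the OTX015 median that differed between these regions, while the combination median was nearly the same.

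The 10 Mb had 1 other such spot. Among 48 other windows of the span's length, 1 held more cover than the span in each list, centred 0.759 Mb before BMI1, with 12.5 kb in 14 peaks with the combination and 23.2 kb in 12 peaks with OTX015. Its ratio of 0.537 and difference of -10.8 kb stood beside 0.546 and -8.83 kb at the span, so the lower cover with the combination was not particular to the BMI1 locus. It holds the starts of SKIDA1 and of MLLT10, which encodes AF10, a partner of the histone methyltransferase DOT1L and of MLL in leukemic fusions. This window made up 56.3% of the rest's cover with the combination and 63.6% with OTX015, and without it, a choice made after seeing the data, the rest came to 9.67 and 13.3 kb, a ratio of 0.729. The other windows had a median of 0 kb with the combination and 0.115 kb with OTX015. Joined across gaps of up to 12.5 kb, the 12 peaks of the locus formed 1 domain in each list, which by length under peaks ranked 2 of 28 with the combination and 2 of 39 with OTX015 in the 10 Mb, 7 of 609 and 4 of 657 on chromosome 10, and 65 of 10385 and 20 of 10041 outside the dense chromosomes.

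**Figure D4:**
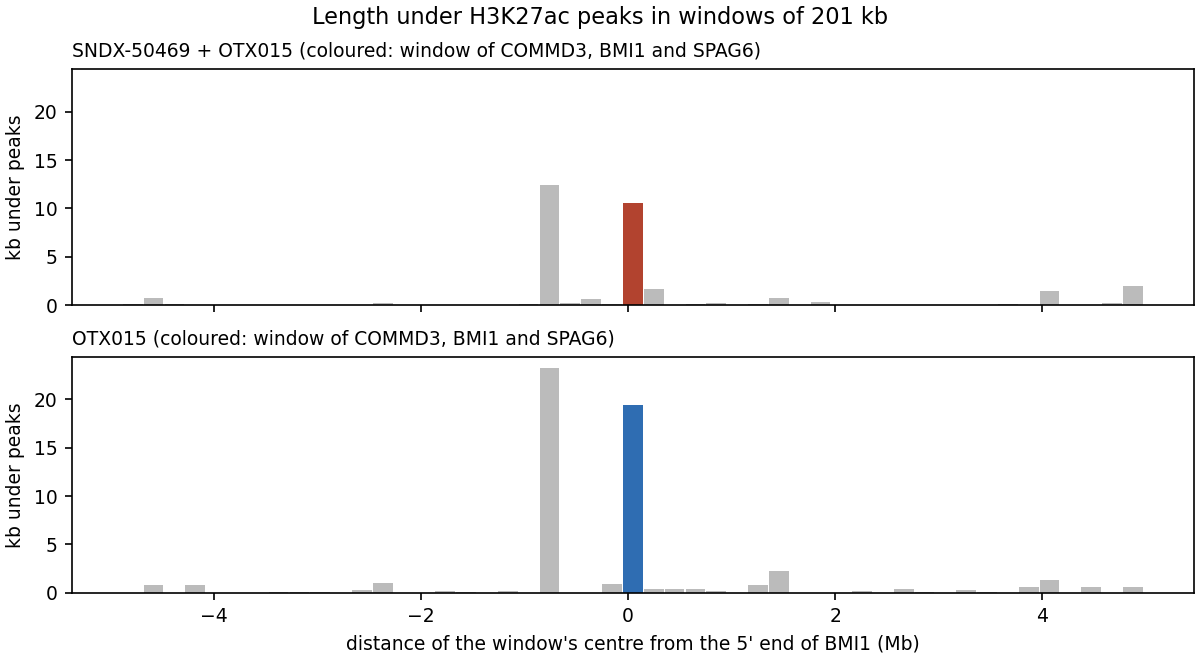
Length under H3K27ac peaks (kb, y axis) in consecutive windows of the span's length, by the distance of their centre from the 5′ end of BMI1 (Mb, x axis), with the combination above and OTX015 below; the coloured bar is the window of COMMD3, BMI1 and SPAG6. The coloured bar (10.6 and 19.4 kb) and the window of SKIDA1 and MLLT10 (12.5 and 23.2 kb) stand above all others in both lists.

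Read gene by gene, as the length under peaks within 10 kb of the 5′ end, all 3 members were lower with the combination, a direction taken by 38.9% of the 9305 genes of 19675 that had cover in either list, and by 46.7% of 5638 outside the dense chromosomes. BMI1 had 4.28 kb with the combination and 8.88 kb with OTX015 (ratio 0.481, difference -4.61 kb). COMMD3 had 4.11 kb with the combination and 9.64 kb with OTX015 (0.426, -5.53 kb). SPAG6 had 3.09 kb with the combination and 4.80 kb with OTX015 (0.644, -1.71 kb), but this turned closer to its start: within 1 kb neither list had cover, and within 2.5 kb SPAG6 had 0.287 kb with the combination and 0 kb with OTX015. The windows of BMI1 and COMMD3 overlap and share peaks, so these are not separate observations. Of all genes with at least 5 kb under OTX015 peaks, 17.6% (48 of 273) had a combination cover of at most 0.6 of it, and 33.3% (30 of 90) outside the dense chromosomes. BMI1, COMMD3 and their readthrough record COMMD3-BMI1, which has the values of COMMD3, were among them, all from 1 locus. SPAG6 was below 5 kb. A minimum on OTX015 cover selects windows that are high in that list, and with the roles of the lists exchanged the share was 60.5% (320 of 529), and 13.7% (10 of 73) outside the dense chromosomes.

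Places in a list depend on how much else it covers (44.4 Mb with the combination and 26.0 Mb with OTX015), so ranks are given for each list and not as a difference between them. BMI1 was 663 of 19675 genes by 5′ cover with the combination and 50 with OTX015, COMMD3 693 and 38, and SPAG6 995 and 296. Outside the dense chromosomes, where 14827 genes remain, BMI1 was 103 and 22, COMMD3 108 and 18, and SPAG6 193 and 104. Ordered from the most negative difference, COMMD3 had the rank 12, BMI1 26 and SPAG6 176 of all genes, and 10, 23 and 115 outside the dense chromosomes. Genes higher with the combination come last in this order, however large their difference. The order also depends on how much each list covers.

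The readthrough record COMMD3-BMI1 begins with COMMD3 and so has its values (4.11 and 9.64 kb). It was left out of the counts of the 10 Mb and the plot that follow, but not of the counts over all genes. Of the 38 other protein-coding genes of the 10 Mb, 10 had any cover within 10 kb of the 5′ end, 6 of them lower and 4 higher with the combination, with a median difference of -0.18 kb. Over all genes, 9305 of 19675 had such cover and 38.9% of these were lower. Outside the dense chromosomes, 5638 of 14827 had it and 46.7% of these were lower. SKIDA1 had 7.71 kb with the combination and 10.4 kb with OTX015, and MLLT10, in an overlapping window that shares cover, had 5.97 and 7.11 kb. These were also the nearest to BMI1 in the pair of covers, at distances of 3.75 kb for SKIDA1 and 2.45 kb for MLLT10, followed at a wide step by ACBD5, which tethers peroxisomes to the endoplasmic reticulum, at 8.65 kb, APBB1IP (RIAM, an adaptor in integrin activation) at 8.94 kb and STAM, an endosomal sorting adaptor, at 9.14 kb. ACBD5 went the other way, with 1.65 kb with the combination and 0.634 kb with OTX015, and APBB1IP had 0.619 and 0.722 kb. STAM (0.801 kb), PDSS1 (0.399 kb, coenzyme Q synthesis) and ABI1 (0.254 kb, a subunit of the actin-regulating WAVE complex) had cover with OTX015 alone. YME1L1, a mitochondrial protease, and MASTL, a mitotic kinase, whose windows share a peak, had 0.355 kb with the combination alone. Gene by gene, BMI1 (-4.61 kb) and COMMD3 (-5.53 kb) differed by more than the 10 other genes with cover. This depends on the window. Over windows of the span's length the difference was -10.8 kb at SKIDA1 and MLLT10 and -8.83 kb at the span.

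**Figure D5:**
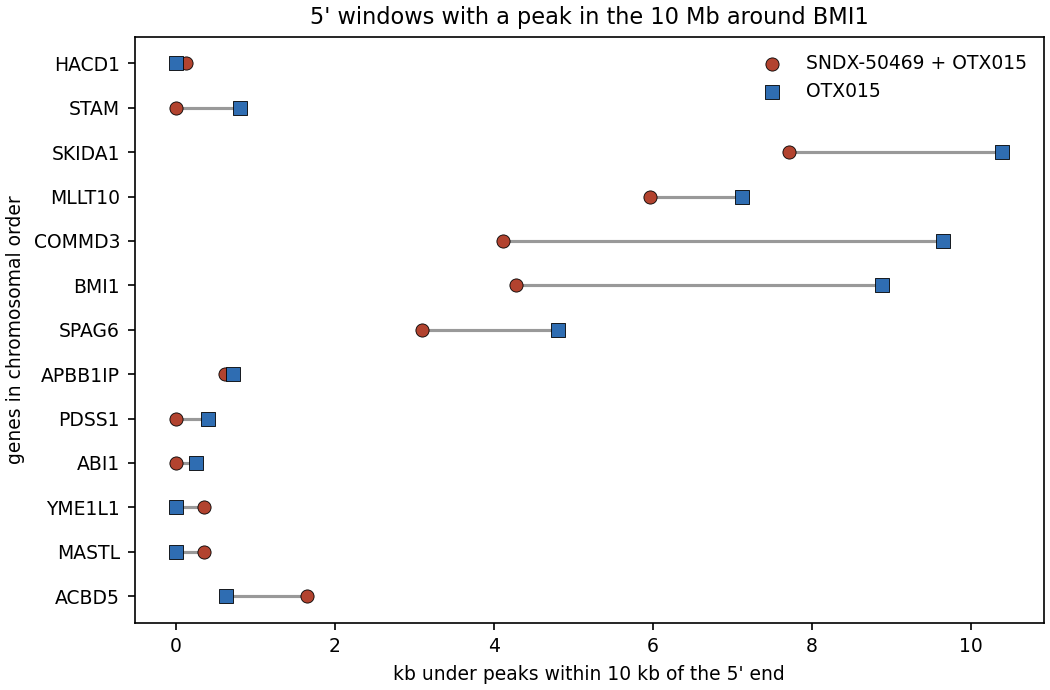
Length under H3K27ac peaks within 10 kb of the 5′ end (kb, x axis) of the 13 protein-coding genes of the 10 Mb with any cover (without the readthrough COMMD3-BMI1), in chromosomal order down the page; red circles are the combination, blue squares OTX015, and a line joins the 2 values of a gene. COMMD3 (4.11 and 9.64 kb) and BMI1 (4.28 and 8.88 kb) have the longest lines, and SKIDA1, MLLT10 and SPAG6 are the other genes above 2 kb.

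The partners of BMI1 had less cover within 10 kb of the 5′ end than BMI1, whose window also holds the start of COMMD3. Of 29 genes of PRC1 and H2A ubiquitination, BMI1 among them, 14 had cover within 10 kb of the 5′ end, beside 9305 of all 19675 genes. Of these 14, 8 (57.1%) were lower and 6 higher with the combination, where 38.9% of all covered genes were lower. The median difference was -0.20 kb, against 0.146 kb over all covered genes. Without the dense chromosomes 7 of 12 were lower (58.3%), against 46.7% of all. BMI1 itself is among the lower genes in both counts and enters the median. Its window had the most cover of the 29 in both lists, but peaks at COMMD3 enter it. The body of BMI1 had 1.34 kb with the combination and 3.47 kb with OTX015. BCOR, a scaffold of a variant PRC1, had 1.60 kb with the combination and 3.25 kb with OTX015, and SCMH1, a PRC1-associated Polycomb protein, had 0 and 1.13 kb. RING1, a catalytic partner of BMI1 on the dense chromosome 6, was higher, with 1.58 and 0.504 kb, as was BAP1, which removes the ubiquitin that PRC1 places (1.55 and 0.514 kb). RNF2, the other catalytic partner, and CDKN2A and CDKN2B, known targets of BMI1, had no cover in either list.

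Of 23 COMMD and Commander genes, 9 had cover, beside 9305 of all 19675 genes. Of the 9, 2 (22.2%) were lower and 7 higher with the combination, where 38.9% of all covered genes were lower and 61.1% higher (median difference 0.21 kb, against 0.146 kb over all). COMMD3 was the 1 gene with a loss above 0.1 kb; the other, VPS26C, had 0.456 kb with the combination and 0.467 kb with OTX015. The largest gains were on dense chromosomes: WASHC5, a subunit of the WASH complex on chromosome 8, had 12.5 and 2.64 kb, COMMD5 on chromosome 8 had 7.42 and 4.67 kb, and COMMD6 on chromosome 13 had 1.98 and 0 kb. Without the dense chromosomes 2 of 6 covered genes were lower (33.3%), against 46.7% of all.

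SPAG6 had more cover than any other of 18 genes of the ciliary central apparatus. Of the 18, 4 had any cover, beside 9305 of all 19675 genes. With the combination 2 were lower (SPAG6 itself and SPEF2) and 2 higher, a number too small to set against the 38.9% lower over all covered genes (median difference -0.32 kb, against 0.146 kb over all). SPEF2 had 0.477 kb with the combination and 1.15 kb with OTX015, SPEF1 0.834 and 0.808 kb, and CFAP70 0.138 and 0 kb. All the cover of SPAG6 came from peaks between its start and the end of BMI1, which lie in the window of SPAG6 by position alone.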

How the data were processed

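H3K27ac ChIP-Seq was made in MOLM13 cells under 2 treatments, 1 ChIP library each; 2 input libraries have labels, and their values were not used here. The sample titles write H2K27Ac and the antibody label H3K27Ac, which was followed. Per the submitters' processing notes, the tools were bcl2fastq 2.17, Trimmomatic 0.33, Bowtie 1.1.2, MACS2 2.1.0 and deepTools on GRCh38, while the study's methods name TopHat2 as mapper; the use of the inputs and the MACS2 options were not given in the sources used here. The authors deposited 1 broad peak list per library, not pooled, with a score (the −log10 q times a constant, cut to a whole number), a fold enrichment (the ratio of pileup to background with a pseudocount, averaged over the peak), a −log10 p and a −log10 q per peak. Fold and −log10 q were printed as deposited, the score was not used, and −log10 p served to rank peaks and to solve the background.

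The lowest peaks of a list share 1 fold and 1 −log10 p, from which a Poisson background with a pseudocount of 1 was solved (whole pileups of 7 for the combination and 5 for OTX015). Fragments per base and enrichment over background were inferred from it. Cover is the union length of peaks, overlap means at least 1 bp, and 5′ windows have 10 kb either side. Gene records came from RefSeq (GRCh38.p14) and promoter sequences likewise; strand came from the promoter table for 15842 genes and, matched by symbol and chromosome with no coordinate, from GENCODE for 3833. No genome of this build was used, so no peak sequence is printed.

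The members and lists were chosen with earlier results of these data known, the 6 dense chromosomes likewise. Genes named are the members, genes under span peaks, the 8 genes of the 10 Mb with the largest differences in 5′ cover, the 5 nearest to BMI1 in the pair of covers (Euclidean distance), and 3 of each list with the largest differences other than the members; BAP1, RNF2, CDKN2A, CDKN2B and VPS26C were named after their values were seen. Alternatives were stricter peaks, equal peak numbers, a common enrichment, merged peaks and other windows. Cover and the background solution were tested on simulated data (200 runs). Scripts ran under Python 3.11.15 with pandas 2.3.3, numpy 2.4.6, scipy 1.17.1 and matplotlib 3.10.9.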

Additional observations from a re-analysis of the deposited data

How the results depend on the processing

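With peaks of a −log10 q of at least 2, the cover ratio of the combination over OTX015 was 0.323 in the span (4.05 and 12.5 kb) and 0.325 in the rest of the 10 Mb, the ratio of peak numbers in the span was 0.2 (1 and 5 peaks), and that of the BMI1 5′ window was 0 (0 and 3.03 kb). At a common minimum of enrichment over background, all 4 ratios were 0, since no combination peak of the 10 Mb reached it. This minimum is the lowest level of the OTX015 list itself (6.54 times), so all OTX015 peaks pass it by construction. The values of 0 thus follow from the limits of the lists and do not measure a difference at the locus. The share of 5′ windows at or below a ratio of 0.6 was 17.6% over all chromosomes and 33.3% without chromosomes 5, 6, 8, 13, 19 and 20. Within 0.5 kb of the BMI1 start, a window added after seeing the data like that of 1 kb, the ratio was 0.107 (0.054 and 0.503 kb). The other 29 values under alternatives stayed within 1.5 times of those reported, and no cover ratio passed 1. The ratio of peak numbers in the span, 1 as deposited, lay on either side of it, at 0.917 (11 and 12) with equal numbers of peaks and 1.13 (9 and 8) with peaks merged. Among these values, the span cover ratio lay between 0.488 without the widest peak of each list and 0.731 in the stretch from BMI1 to SPAG6 (both chosen after seeing the data), the rest of the 10 Mb between 0.448 with equal numbers of peaks and 0.893 over all of chromosome 10, and the BMI1 5′ window between 0.369 at 1 kb either side and 0.612 at 2.5 kb either side, with 0.521 at the further RefSeq start (chosen after seeing the data). The ratio for the body of SPAG6 has no value, since both lists are at 0 there, under each choice of peaks; with 10 kb either side it had 3.09 and 4.80 kb, all from before its start. No paired analysis was possible because each treatment had 1 ChIP library, and for the same reason no library could be left out. Peak lists show where a caller's threshold was passed and not the signal between peaks, so a region without a peak may still carry H3K27ac below the limit of 4.76 times background with the combination or 6.54 times with OTX015.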
